A study of Mus musculus with 6 samples.

Results

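The genes described here are the 3 LAR-type receptor phosphatases, Ptprd, Ptprs and Ptprf, and 7 of their ligands at synapses, Il1rapl1, Il1rapl2 and Slitrk1 to Slitrk5. They were taken by symbol from the count matrices, and all 10 symbols were found among 32285 genes. The study asked how the environment before and after weaning shapes the prelimbic (PL) area of the medial prefrontal cortex in male C57BL/6 offspring. Nuclei of the dissected PL were profiled by single-nucleus RNA-Seq (snRNA-Seq) in 6 libraries, and 3 males that were not brothers gave the pooled tissue of each. Run offspring were nursed by mothers that had a running wheel in the postnatal period, and Sed offspring by mothers in standard cages, while the offspring themselves had no wheel. From weaning, mice were kept in groups (GH) or singly (SI).

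Dataset 1 held 1 Run GH and 1 Sed GH library from males that had competed in tube tests of social dominance and, by the study's account, were picked by their rank, with nuclei isolated on the day after the last test. Dataset 2 held 4 libraries, a Run and a Sed one for either housing, from males that took part in no behavioural test. By the study's methods the mice were adults at collection, whereas the age field of the labels names the day of weaning. A library was therefore the unit of replication, with 3 Run against 3 Sed libraries and 2 SI against 4 GH libraries, and SI was present in dataset 2 alone. Because animals were pooled, the spread between libraries also holds the spread of nucleus isolation and library preparation.

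Ptprd, Ptprs and Ptprf encode PTPδ, PTPσ and LAR, receptors that span the membrane of the axon terminal once and carry tandem phosphatase domains inside the cell. Across the synaptic cleft they bind adhesion molecules of the dendrite, among them the Il1rapl and Slitrk proteins, and this contact drives the assembly of the presynaptic and postsynaptic sides. Inside the terminal they bind liprin-α scaffold proteins (Ppfia genes) and the exchange factor Trio. Small alternative exons in the phosphatases select between ligands, and counts per gene from the 3′ end do not separate those isoforms.

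After filtering, 42595 nuclei were kept, between 4997 and 9936 per library, and 38296 of them (89.9%) fell into 16 classes named from marker genes. Median depth was 5586 to 6250 UMIs (unique molecular identifiers, 1 per captured RNA molecule) per nucleus in dataset 1 and 1637 to 4033 in dataset 2. Droplets without a nucleus held 18.8 to 19.1% as many UMIs as a nucleus in dataset 1 and 4.25 to 7.71% in dataset 2, by medians. Free RNA was thus denser in dataset 1 by this measure. Such droplets were taken as barcodes of 30 to 2000 UMIs that also lay below the library's minimum for a nucleus. That minimum was 2452 to 3156 UMIs in dataset 1 and 621 to 1587 in dataset 2. Shallow or damaged nuclei among these barcodes were not excluded. Nuclei held 19.0 to 32.9% of all UMIs in dataset 1 and 56.4 to 61.9% in dataset 2. Of the markers fixed for each class, at least 2 were highest in the class named after them, except for the Deptor cluster of layer 5, where 1 of 3 was, and it is called here by that marker, Deptor. Il1rapl2, which took no part in clustering, leads the genes that mark this cluster in both datasets. Between 5 and 22 nucleus barcodes were shared by any pair of libraries, at most 0.428% of the smaller one. Levels are given as counts per 1e6 UMIs of the same class and library (CPM), so that fewer transcripts per nucleus and a larger amount of other RNA cannot be told apart.

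The genes differ greatly in genomic length, which matters because nuclear RNA is rich in introns and introns were counted. Ptprd lies at chr4:75941238-78211961 on the minus strand (GRCm38, mm10) and spans 2271 kb, with Gm42303 and B230208B08Rik on the opposite strand inside this span. Il1rapl1 lies at chrX:86740870-88115645 on the minus strand and spans 1375 kb. Il1rapl2 lies at chrX:137570608-138846946 on the plus strand and spans 1276 kb, with Tex13a on the opposite strand. Ptprs, at chr17:56412426-56476483, and Ptprf, at chr4:118208213-118291405, are both on the minus strand and span 64.1 and 83.2 kb. The Slitrk genes are short, from 5.36 kb for Slitrk1 (chr14:108908800-108914158) to 12.1 kb for Slitrk2 (chrX:66649318-66661393) and Slitrk4 (chrX:64264885-64276996), with Slitrk3 at chr3:73047265-73057803 and Slitrk5 at chr14:111675097-111683141.

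**Figure D1:**
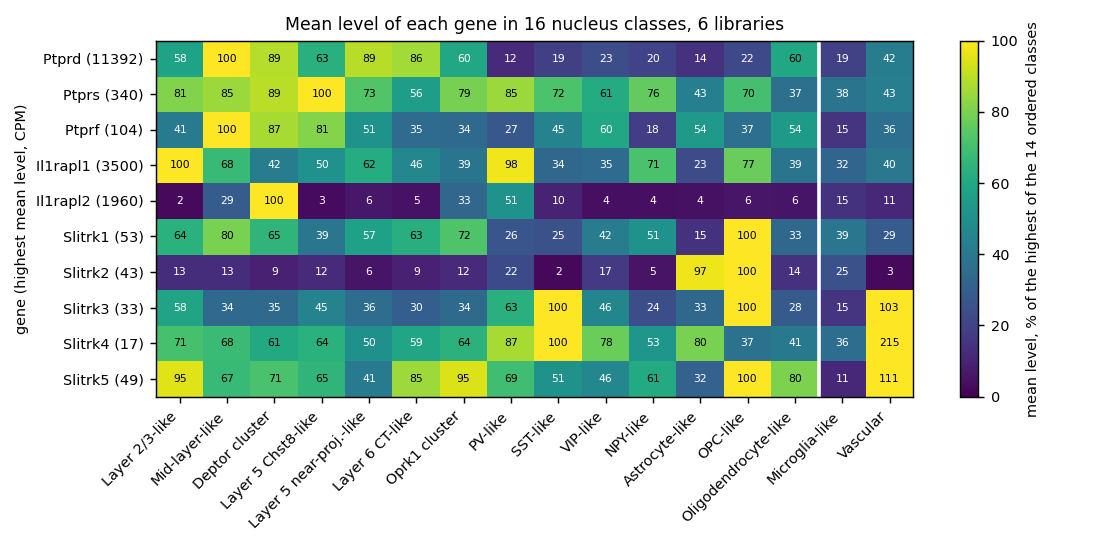
Mean level of each of the 10 genes (rows) in 16 nucleus classes (columns) over 6 libraries, as a percentage of the gene's highest mean among the 14 classes that could be ordered; the number in parentheses is that highest mean in CPM, and colours stop at 100%. Ptprd fills the pyramidal and oligodendrocyte columns and is low in the interneuron columns, Il1rapl1 peaks in layer 2/3-like and PV-like nuclei, Il1rapl2 in the Deptor cluster and Slitrk2 in OPC-like and astrocyte-like nuclei. Oligodendrocyte-like nuclei also carry pyramidal markers, at up to 82.1% of the pyramidal level.

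Levels of all 10 genes were compared over 14 classes with at least 10 nuclei in every library. These were 7 pyramidal classes (layer 2/3-like, mid-layer-like, the Deptor cluster, layer 5 Chst8-like, layer 5 near-projecting-like, layer 6 corticothalamic-like and the Oprk1 cluster), 4 interneuron classes (PV-, SST-, VIP- and NPY-like), astrocyte-like nuclei, oligodendrocyte precursors (OPC-like) and oligodendrocyte-like nuclei. Microglia-like and vascular nuclei, with as few as 9 and 5 in a library, were too few. Classes were ordered by their mean log2(CPM + 1), and each was set against the next lower one by an exact two-sided permutation test that flips the sign of each library's log2 difference. With 6 libraries this exact test cannot go below p = 0.03125. Of 130 neighbouring pairs, 15 lay apart in the same direction in all 6 libraries, and no pair passed after adjustment over the 130 (smallest adjusted p = 0.271). The orders are therefore descriptions, and neighbours not named below overlapped or changed places in at least 1 library.

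Ptprd, the gene for PTPδ, was by far the most abundant of the group. Over all nuclei of dataset 1 it stood at 9338 CPM in Run GH and 8089 in Sed GH, and in dataset 2 at 7283 (Run) and 7130 (Sed) in GH and 7682 (Run) and 7713 (Sed) in SI. Both libraries of dataset 1 lay above all 4 of dataset 2. How many of all genes separate the datasets in this way, here and below, was not counted. By edgeR 41.3% of 18761 genes differed between datasets over all nuclei (adjusted p below 0.05). The mean level was highest in mid-layer-like nuclei, at 11392 ± 1605 CPM (SD, n = 6 libraries, as for all means below). Near-projecting-like nuclei (10150 ± 686 CPM), the Deptor cluster (10131 ± 657 CPM) and layer 6 nuclei (9794 ± 1115 CPM) followed and did not differ from their neighbours beyond their spread. Layer 5 Chst8-like nuclei came next at 7233 ± 688 CPM, below layer 6 nuclei in 6 of 6 libraries by 0.44 on the log2 scale. Oligodendrocyte-like nuclei (6853 ± 1278 CPM), the Oprk1 cluster (6830 ± 576 CPM) and layer 2/3-like nuclei (6600 ± 680 CPM) formed the lower end of this range. Oligodendrocyte-like nuclei, as few as 10 in a library, also carried summed pyramidal markers. These reached 57.7 to 82.1% of their pyramidal level in dataset 1 and 6.19 to 43.7% in dataset 2. The part of pyramidal RNA in the Ptprd level of these nuclei was not tested.

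A wide step then separated the interneurons. Layer 2/3-like nuclei exceeded VIP-like nuclei (2671 ± 1019 CPM) by 1.38 on the log2 scale, in 6 of 6 libraries. VIP-like nuclei in turn exceeded NPY-like nuclei (2296 ± 795 CPM) by 0.20, and these exceeded SST-like nuclei (2145 ± 691 CPM) by 0.09, both in 6 of 6 libraries. OPC-like nuclei (2508 ± 1909 CPM) exceeded PV-like nuclei (1417 ± 828 CPM) by 0.67 in 6 of 6 libraries, and astrocyte-like nuclei (1620 ± 1620 CPM) had the lowest mean log2 level of Ptprd. In PV-like nuclei Ptprd stood at 2433 CPM in Run GH and 2535 in Sed GH of dataset 1, and at 925 (Run) and 888 (Sed) in GH and 879 (Run) and 840 (Sed) in SI of dataset 2. The 2 datasets thus did not overlap in this class, and dataset 2 varied little among its 4 libraries.

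Setting all pyramidal nuclei against all inhibitory nuclei within each library gave the clearest contrast of Ptprd. In dataset 1 pyramidal nuclei held 10332 and 8725 CPM of it in Run GH and Sed GH, against 3278 and 3011 CPM in inhibitory nuclei. In dataset 2 they held 8145 (Run) and 7754 CPM (Sed) in GH and 8647 (Run) and 8558 CPM (Sed) in SI, against 1261, 1769, 1323 and 1432 CPM. Inhibitory nuclei were lower in 6 of 6 libraries, by a mean of -2.22 ± 0.53 (log2 inhibitory over pyramidal), at the smallest p the exact two-sided permutation test allows (0.03125, unadjusted here and below). Such a same-sign difference in every library was not rare, since it was found for 48.8% of 15697 genes with at least 1 CPM in either population.

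Free RNA carried Ptprd at a level close to that of nuclei in dataset 1. Droplets without a nucleus held it at 9183 and 9566 CPM there, and at 1806 to 2941 CPM in dataset 2. Summed pyramidal markers, which interneurons should lack, reached 40.6 to 41.8% of their pyramidal level in inhibitory nuclei of dataset 1 and 27.5 to 33.0% in dataset 2. By class these shares in dataset 2 were 27 to 44% in VIP-like, 35 to 40% in NPY-like, 19 to 32% in SST-like and 22 to 27% in PV-like nuclei. The part of pyramidal RNA in the Ptprd level of interneurons, and in the order of their classes, was not tested. After the profile of those droplets was taken out, Ptprd stood at 8956 ± 875 CPM in pyramidal, 1479 ± 301 CPM in inhibitory and 809 ± 66.8 CPM in PV-like nuclei. The gap between pyramidal and inhibitory nuclei was thus as wide or wider without that profile, while the absolute level in interneurons was lower.

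**Figure D2:**
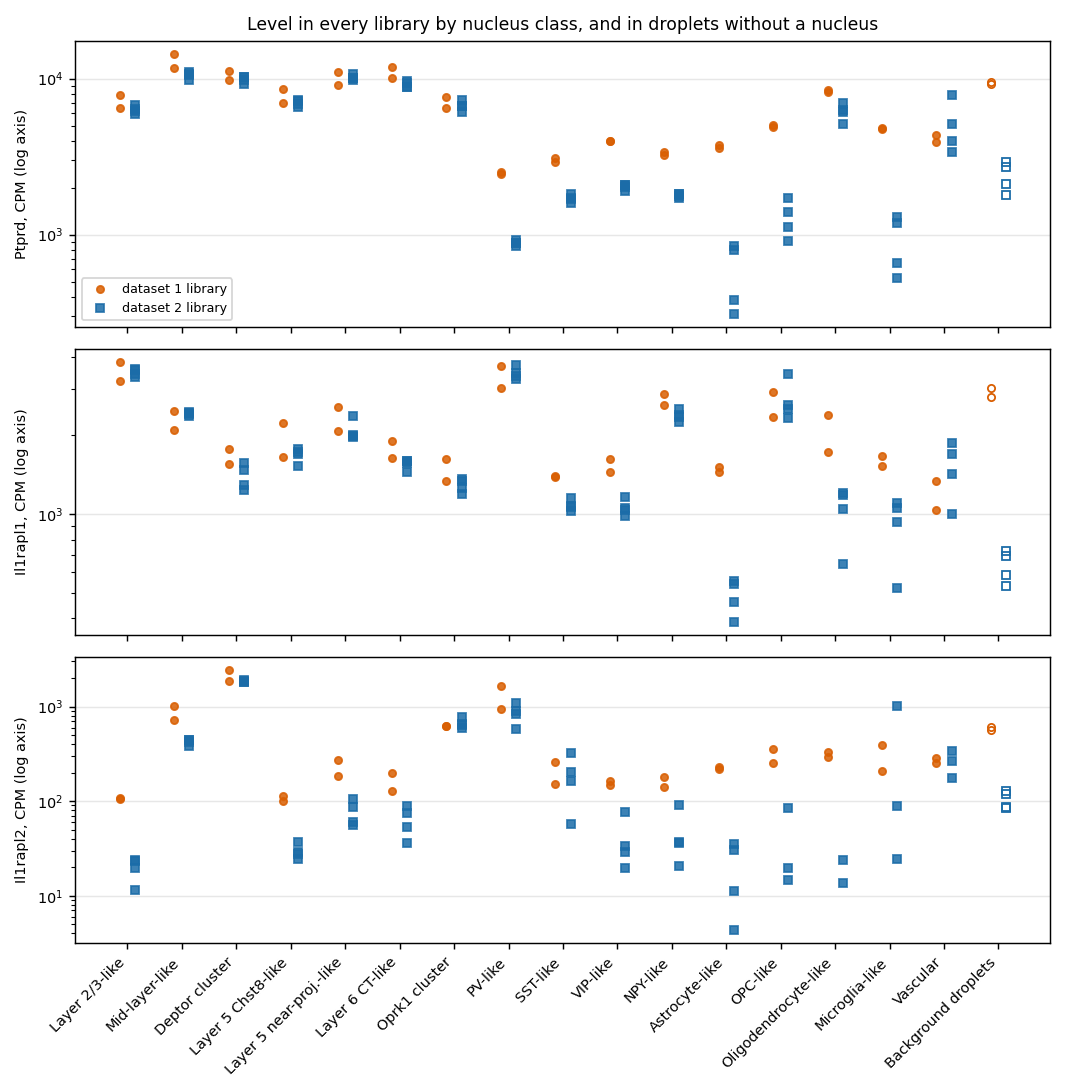
Level in CPM (log axis) of Ptprd (top), Il1rapl1 (middle) and Il1rapl2 (bottom) in each nucleus class and, as open symbols at the right, in droplets without a nucleus; each point is 1 library, circles for the 2 libraries of dataset 1 and squares for the 4 of dataset 2, and 5 values of Il1rapl2 at 0 are not drawn. Where a gene is abundant the 2 datasets lie close together, and in most classes where it is low the circles of dataset 1 lie above the squares.

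Ptprs, which encodes PTPσ, a phosphatase that also binds proteoglycans, was flatter across classes. Over all nuclei it stood at 322 CPM in Run GH and 413 in Sed GH of dataset 1, and at 229 (Run) and 214 (Sed) in GH and 226 (Run) and 206 (Sed) in SI of dataset 2. Dataset 1 again lay above dataset 2 without overlap, with the Sed GH library highest. Layer 5 Chst8-like nuclei had the highest mean (340 ± 117 CPM), above the Deptor cluster (304 ± 107 CPM) in 6 of 6 libraries by 0.16 on the log2 scale. PV-like (289 ± 87.7 CPM), mid-layer-like (289 ± 96.7 CPM) and layer 2/3-like nuclei (275 ± 98.5 CPM) followed closely, the last of them below mid-layer-like nuclei by 0.08 in 6 of 6 libraries. The lowest means were those of layer 6 corticothalamic-like (190 ± 56.0 CPM), astrocyte-like (146 ± 35.2 CPM) and oligodendrocyte-like nuclei (125 ± 106 CPM).

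Inhibitory and pyramidal nuclei held nearly the same level of Ptprs. The difference was -0.06 on the log2 scale, lower in inhibitory nuclei in 5 of 6 libraries, with an exact two-sided permutation p of 0.0938. Droplets without a nucleus held 194 to 217 CPM of Ptprs, which overlapped the range of the nuclei of dataset 2. Layer 6 nuclei, at 174 (Run) and 142 CPM (Sed) in GH and 174 (Run) and 142 CPM (Sed) in SI of dataset 2, were below the level of those droplets.

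Ptprf, the gene for LAR itself, was the scarcest phosphatase. It stood at 68.4 CPM in Run GH and 86.4 in Sed GH of dataset 1 and at 49.4 (Run) and 47.0 CPM (Sed) in GH and 56.7 (Run) and 49.1 CPM (Sed) in SI of dataset 2, over all nuclei. Mid-layer-like nuclei (104 ± 52.3 CPM), the Deptor cluster (90.4 ± 21.8 CPM) and layer 5 Chst8-like nuclei (84.4 ± 25.3 CPM) had the highest means, and the last of these exceeded VIP-like nuclei (62.0 ± 15.0 CPM) in 6 of 6 libraries. PV-like (28.4 ± 9.45 CPM) and NPY-like nuclei (18.9 ± 9.94 CPM) had the lowest. Inhibitory nuclei were below pyramidal nuclei in 6 of 6 libraries by a mean log2 difference of -0.56, at the smallest p of the exact permutation test (0.03125). Ptprf at 55.5 to 84.8 CPM in droplets without a nucleus overlapped the 47.0 to 86.4 CPM of nuclei.

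Il1rapl1 encodes a ligand of PTPδ on dendrites, and loss of the human gene, which is X-linked, is a cause of intellectual disability. Over all nuclei it varied little, from 2685 CPM in Run GH and 2138 in Sed GH of dataset 1 to 2054 (Run) and 2188 CPM (Sed) in GH and 2018 (Run) and 2258 CPM (Sed) in SI of dataset 2. Its highest means were in layer 2/3-like (3500 ± 211 CPM) and PV-like nuclei (3428 ± 257 CPM), a pyramidal and an interneuron class that did not differ beyond their spread. PV-like nuclei held 3690 and 3041 CPM in Run GH and Sed GH of dataset 1 and 3360 (Run) and 3456 CPM (Sed) in GH and 3296 (Run) and 3728 CPM (Sed) in SI of dataset 2. They exceeded OPC-like nuclei (2694 ± 423 CPM) in 6 of 6 libraries by 0.36 on the log2 scale.

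Of the other interneurons, NPY-like nuclei lay within the range of the pyramidal classes for Il1rapl1 and VIP- and SST-like nuclei below it. NPY-like nuclei (2498 ± 223 CPM) lay just above mid-layer-like (2373 ± 140 CPM) and near-projecting-like nuclei (2166 ± 247 CPM). Lower levels were found in layer 5 Chst8-like (1766 ± 239 CPM), layer 6 (1625 ± 147 CPM), Deptor (1485 ± 195 CPM), oligodendrocyte-like (1365 ± 609 CPM) and Oprk1 nuclei (1356 ± 147 CPM). Near-projecting-like nuclei exceeded layer 5 Chst8-like nuclei by 0.30, and layer 6 nuclei the Deptor cluster by 0.14, in 6 of 6 libraries. VIP-like (1220 ± 262 CPM), SST-like (1185 ± 165 CPM) and astrocyte-like nuclei (819 ± 518 CPM) closed the order. As a whole, inhibitory and pyramidal nuclei had nearly the same Il1rapl1 level, 0.04 apart on the log2 scale with an exact permutation p of 0.594, while PV-like and SST-like nuclei lay near opposite ends of the order.

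Il1rapl2, the X-linked relative of Il1rapl1, had the sharpest class pattern of the group. In the Deptor cluster it stood at 2454 CPM in Run GH and 1873 in Sed GH of dataset 1, and at 1828 (Run) and 1904 CPM (Sed) in GH and 1830 (Run) and 1874 CPM (Sed) in SI of dataset 2. Apart from the Run GH library of dataset 1, which was the highest, these levels lay close together. PV-like nuclei came second with 997 ± 362 CPM, below the Deptor cluster in 6 of 6 libraries by 1.04 ± 0.37 on the log2 scale. The Oprk1 cluster (650 ± 64.4 CPM) and mid-layer-like nuclei (574 ± 253 CPM) followed, and mid-layer-like nuclei exceeded SST-like nuclei (192 ± 90.3 CPM) by 1.66 in 6 of 6 libraries. The remaining classes had means from 127 CPM of Il1rapl2 in near-projecting-like down to 55.1 in layer 5 Chst8-like and 48.3 in layer 2/3-like nuclei.

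Layer 2/3-like nuclei thus had the highest mean CPM of Il1rapl1 and the lowest of Il1rapl2, and the Deptor cluster the highest of Il1rapl2. Layer 2/3-like Il1rapl2 was 105 and 107 CPM in Run GH and Sed GH of dataset 1 and 23.6, 19.6, 23.3 and 11.4 CPM in dataset 2, where droplets without a nucleus held at least 85.4 CPM. With that background taken out, layer 2/3-like nuclei kept 0 to 16.3 CPM of Il1rapl2 and the Deptor cluster 2156 ± 364 CPM. Nuclei thinned to 1000 UMIs each had an Il1rapl2 UMI in 72.9 to 83.4% of Deptor nuclei (88.7 to 98.6% before thinning) and in 0.945 to 11.5% of layer 2/3-like nuclei (2.44 to 52.0% before). Before thinning, median depth per library was 2104 to 8285 UMIs in the Deptor cluster and 1526 to 6689 in layer 2/3-like nuclei.

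The Slitrk genes encode leucine-rich repeat ligands of PTPδ and PTPσ on the postsynaptic side. Background knowledge places Slitrk3 at inhibitory synapses and the others mainly at excitatory ones. All 5 were far scarcer per UMI than the long genes, and in 6 of 6 libraries each had a higher CPM in droplets without a nucleus than in nuclei. The ranges were 33.4 to 50.7 against 18.1 to 49.7 CPM for Slitrk1, 7.24 to 22.4 against 4.87 to 6.32 CPM for Slitrk2 and 19.6 to 46.4 against 12 to 15.9 CPM for Slitrk3. For Slitrk4 they were 19.9 to 56.9 against 9.43 to 13.8 CPM, and for Slitrk5 42.4 to 76.8 against 33.9 to 45.7 CPM.

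Slitrk1 stood at 23.5 CPM in Run GH and 18.1 in Sed GH of dataset 1, over all nuclei, and at 49.7 (Run) and 32.4 CPM (Sed) in GH and 36.9 (Run) and 31.0 CPM (Sed) in SI of dataset 2. This is the reverse of the phosphatases, as both libraries of dataset 1 lay below all 4 of dataset 2. OPC-like nuclei had the highest mean (53.0 ± 30.4 CPM), which rested on 38 UMIs, before mid-layer-like nuclei (42.3 ± 17.2 CPM) and the Oprk1 cluster (38.3 ± 16 CPM). PV-like, SST-like and astrocyte-like nuclei, at 13.9 ± 6.58, 13.1 ± 9.0 and 7.77 ± 4.31 CPM, were lowest. Inhibitory nuclei held 16.4 CPM against 34.1 CPM in pyramidal nuclei, lower in 6 of 6 libraries by -0.99 ± 0.35 on the log2 scale (exact permutation p = 0.03125).

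Slitrk5 stood at 39.1 CPM in pyramidal nuclei as a whole against 27.5 CPM in inhibitory nuclei, lower in the latter in 6 of 6 libraries by a mean log2 difference of -0.51 (exact permutation p = 0.03125). The single classes did not divide in this way. Near-projecting-like nuclei, a pyramidal class, had a lower mean (20.05 ± 5.53 CPM) than each of the 4 interneuron classes, which ran from 22.8 CPM in VIP-like to 34.0 CPM in PV-like nuclei, and PV-like nuclei stood just above mid-layer-like (33.0 CPM) and layer 5 Chst8-like nuclei (32.1 CPM). In layer 2/3-like nuclei it held 41.5 and 46.5 CPM in Run GH and Sed GH of dataset 1 and 55.2 (Run) and 48.9 CPM (Sed) in GH and 45.1 (Run) and 42.6 CPM (Sed) in SI of dataset 2. OPC-like (49.0 ± 19.0 CPM), layer 2/3-like (46.6 ± 4.97 CPM) and Oprk1 nuclei (46.5 ± 5.77 CPM) could not be ordered, layer 6 nuclei (41.7 ± 6.22 CPM) exceeded the Deptor cluster (34.9 ± 5.22 CPM) by 0.25 on the log2 scale in 6 of 6 libraries. By mean log2(CPM + 1) layer 2/3-like nuclei came first, which they kept in 5 of 13 other ways of processing.

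Slitrk4 went the other way. Inhibitory nuclei held 14.5 ± 2.28 CPM against 11.2 ± 2.21 CPM in pyramidal nuclei, higher in 6 of 6 libraries by 0.35 on the log2 scale, at the smallest p of the exact permutation test (0.03125). SST-like nuclei had the highest mean among the ordered classes, 17 ± 4.72 CPM. Slitrk3 had a mean of 32.8 ± 11.9 CPM in SST-like and 20.9 ± 5.84 CPM in PV-like nuclei, beside 33.0 ± 43.3 CPM in the few OPC-like nuclei. SST-like nuclei held 32.0 and 51.4 CPM of Slitrk3 in Run GH and Sed GH of dataset 1 and 42.5 (Run) and 19.9 CPM (Sed) in GH and 24.9 (Run) and 26.3 CPM (Sed) in SI of dataset 2. Layer 2/3-like nuclei (19.2 ± 2.79 CPM) exceeded layer 5 Chst8-like nuclei (14.8 ± 1.82 CPM) by 0.35 in 6 of 6 libraries. Inhibitory nuclei exceeded pyramidal nuclei for Slitrk3 in 5 of 6 libraries by 0.49 on the log2 scale, the Sed GH library of dataset 2 being the exception.

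Slitrk2 had its 2 highest class means in glia. Astrocyte-like nuclei held 24.7 and 30.5 CPM in Run GH and Sed GH of dataset 1 and 64.2 (Run) and 33.3 CPM (Sed) in GH and 52.7 (Run) and 43.8 CPM (Sed) in SI of dataset 2. All 6 values lay above the means of the neuronal classes, which reached at most 9.55 CPM, in PV-like nuclei. In astrocyte-like nuclei of Sed GH in dataset 2, however, 1 UMI equals 11.1 CPM, so that value rests on few molecules. OPC-like nuclei had a mean of 42.6 ± 59.3 CPM from 23 UMIs, so their place beside astrocytes rests on few molecules. Over all nuclei each library held 70 to 294 UMIs of Slitrk2.

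Per length of genomic span the order of the genes changed. Over all nuclei, Slitrk1 had the highest level at 596 CPM per 100 kb of span, before Slitrk5 (469), Ptprs (419) and Ptprd (347). Il1rapl1 followed with 162, then Slitrk3 (135), Slitrk4 (95.5), Ptprf (71.5), Slitrk2 (48.5) and Il1rapl2 (37.0 CPM per 100 kb). Ptprd and Ptprs, far apart in CPM, were thus close to each other per length.

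Across the 14 class means on the log2 scale, Pearson's r between pairs of members ran from -0.40 for Ptprd and Slitrk2 to 0.67 for Slitrk1 and Slitrk5. Among 12658 genes with at least 10 CPM in 1 class or more, the pattern most like that of Ptprd was that of Foxp1, a transcription factor of pyramidal neurons (r = 0.95 over 14 classes), followed by Rasal1 (0.91). Eml4 came closest to Il1rapl1 (0.85), Ttc27 to Il1rapl2 (0.86), Myh10 to Ptprs (0.96) and Abhd5 to Ptprf (0.76). For the Slitrk genes these were Brinp1 for Slitrk1 (0.92), Gask1a for Slitrk2 (0.91), Tsr2 for Slitrk3 (0.88), Ikbkg for Slitrk4 (0.98) and Gfod1 for Slitrk5 (0.90). These coefficients describe 14 points that share libraries and free RNA.

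The effect of maternal running was then tested in each class with edgeR, in a model that also held dataset and housing. Of 114 tests of the 10 genes in 14 classes, 0 passed an adjusted p of 0.05, and 10 had an unadjusted p below 0.05. Over all genes 0.0427% of 133367 tests passed. The median log2 fold change of the members, Run over Sed, was 0.03, against class medians of all genes from -0.01 to 0.10. By DESeq2 0 of 140 class tests passed (0.176% over all genes), and Slitrk1 passed in all nuclei (0.37 ± 0.11, adjusted p = 0.0413), where 3.29% of all genes did, and in pyramidal nuclei (0.39, adjusted p = 0.0350), where 2.44% did.

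Slitrk1 and Slitrk4 had the largest differences in all nuclei. Slitrk4 held 13.3 CPM in Run GH of dataset 1 and 13.8 and 12.9 CPM in Run GH and Run SI of dataset 2, against 9.43 CPM in Sed GH of dataset 1 and 9.89 and 10.0 CPM in Sed GH and Sed SI of dataset 2. All 3 Run libraries lay above all 3 Sed libraries, as they did for 3.71% of 15115 genes with a mean of at least 1 CPM. The log2 fold change was 0.39 ± 0.11 (edgeR, adjusted p = 0.575), and it was positive in 7 of 7 classes in which Slitrk4 was tested, all drawn from the same 6 libraries. In layer 2/3-like nuclei Slitrk4 held 17.5, 14.2 and 12.9 CPM in the 3 Run libraries and 11.3, 8.35 and 8.01 CPM in the 3 Sed libraries, a log2 fold change of 0.64 ± 0.18 (edgeR adjusted p = 0.564).

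Slitrk1 was higher in Run than in Sed within each pair of libraries from the same dataset and housing. The pairs were 23.5 against 18.1 CPM in GH of dataset 1, 49.7 against 32.4 CPM in GH of dataset 2 and 36.9 against 31.0 CPM in SI. Droplets without a nucleus went the same way in all 3 pairs, with 42.0 against 33.4 CPM, 50.7 against 42.0 CPM and 50.1 against 48.4 CPM in that order, and their part in the difference was not tested. The log2 fold change was 0.35 ± 0.10 with an adjusted p of 0.575 by edgeR, and 0.38 ± 0.10 with 0.630 in pyramidal nuclei. The other 8 genes had log2 fold changes within 0.10 of 0 over all nuclei, and none of these edgeR tests passed. Il1rapl1 and Il1rapl2 passed over all nuclei once a library of dataset 1 was left out, at -0.22 and -0.33 without Run GH (adjusted p = 0.0370 and 0.0214) and at -0.22 and -0.33 without Sed GH (adjusted p = 0.0219 and 0.0106), where 9.05% and 11.2% of all genes passed. In this model a library whose partner of the same dataset and housing is left out no longer bears on the Run effect. Both fits thus repeat the comparison within dataset 2 given below. Without Run GH or Sed GH of dataset 2 neither gene passed over all nuclei. Il1rapl2 in layer 6 nuclei then passed as higher in Run, at 0.76 in either fit (edgeR adjusted p = 0.0152 and 0.0147). In that class 0.0731% and 0.0723% of all genes passed. These layer 6 fits are the same contrast, without the pair that goes the other way. That pair held 52.9 (Run) against 88.5 CPM (Sed), beside 196 against 129 CPM in dataset 1 and 74.2 against 36.2 CPM in SI.

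**Figure D3:**
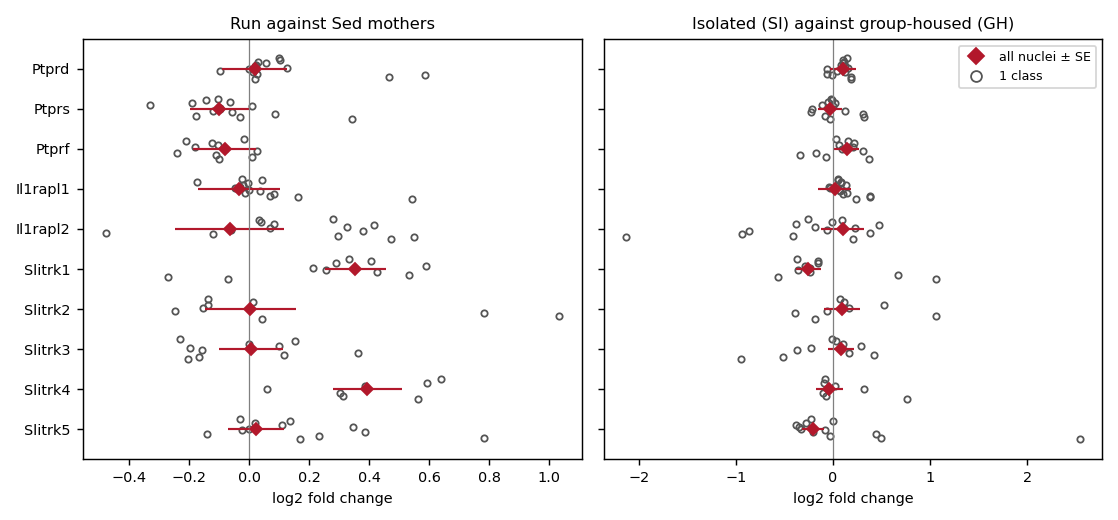
Log2 fold change of each gene for Run against Sed mothers (left) and for isolated against group-housed mice (right); red diamonds with bars are all nuclei ± SE, and open circles are single classes. All 7 circles of Slitrk4 at left lie to the right of 0, and for both comparisons 0 of the 114 class tests passed adjustment.

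The difference between Run and Sed was not the same in the 2 datasets for several members. A fit with a term for the difference of the Run effect between datasets, which leaves 1 residual degree of freedom, called 10 of 125 tests of members (8.0%), against 2.19% of 146513 tests of all genes, and 36 of the 125 had an unadjusted p below 0.05. Of the 10, 4 were of Il1rapl1 and 3 of Il1rapl2, each with a more negative Run effect in dataset 2. The other 3 were Ptprd, Ptprs and Ptprf in 1 class each. In dataset 1 the Run and Sed libraries also differed in the share of UMIs that lay in nuclei, 32.9 and 19.0%, and the part of this in the result was not tested. The GH pair of dataset 2 differed in depth, with medians of 3396.5 UMIs per nucleus in Run and 1637 in Sed. Their minima of UMIs for a nucleus were 1272 and 621. In SI the medians were 4033 and 3600 UMIs. The part of depth in this result, and in the fits within dataset 2 below, was not tested.

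Il1rapl2 in PV-like nuclei showed the largest negative difference among those called. It stood at 1653 CPM in Run GH and 931 in Sed GH of dataset 1. In dataset 2 it stood at 839 in Run GH and 891 in Sed GH, and at 578 in Run SI and 1091 in Sed SI. Run was thus higher in dataset 1, by 0.83 on the log2 scale, and lower in both pairs of dataset 2, by -0.09 in GH and -0.92 in SI. The Run effect differed by -1.46 ± 0.20 between datasets (edgeR adjusted p = 7.73e-05). The ± of this and other edgeR fold changes is a standard error with variance moderated over genes, not the spread between library pairs. The PV-like class joins clusters with and without Il1rapl2, in shares that differ between libraries. In dataset 1 its 2 clusters held 2504 CPM (Run) and 1665 CPM (Sed) of Il1rapl2 in the one and 119 and 140 CPM in the other, and the first made up 191 of 293 PV-like nuclei in Run GH and 82 of 164 in Sed GH. In dataset 2, 1 of 3 clusters held at most 22.2 CPM, and it made up 107 of 395 nuclei in Run GH, 56 of 205 in Sed GH, 141 of 388 in Run SI and 42 of 168 in Sed SI. The clusters that held the gene stood at 985 and 794 CPM in Run SI against 1586 and 1529 CPM in Sed SI, and at 1227 and 1055 CPM in Run GH against 1005 and 1284 CPM in Sed GH. Run was thus above Sed in dataset 1 and below it in SI also within these clusters, while in GH of dataset 2 they went opposite ways. These cluster values were read after the class result was known, and the part of the unequal shares in the class result was not tested.

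In the Deptor cluster both Il1rapl genes behaved in this way. Il1rapl1 there was 1772 against 1553 CPM (Run against Sed) in dataset 1, and 1239 against 1481 CPM in GH and 1296 against 1571 CPM in SI of dataset 2, a difference of Run effects of -0.59 (adjusted p = 0.000309, edgeR). Run lay above Sed in dataset 1 and below it in both pairs of dataset 2. Il1rapl2 in the same cluster was 2454 against 1873 CPM in dataset 1, 1828 against 1904 CPM in GH and 1830 against 1874 CPM in SI of dataset 2. Its difference of Run effects was -0.57, with nearly equal levels in both pairs of dataset 2. Il1rapl2 in mid-layer-like nuclei was 1024 against 726 CPM in dataset 1, 382 against 443 CPM in GH and 424 against 446 CPM in SI of dataset 2, with a difference of -0.74. An unnamed cluster of dataset 1 that matches the mid-layer-like cluster of dataset 2 nearly as well (r = 0.84) is not counted in this class, and held 169 CPM of Il1rapl2 in Run GH and 122 in Sed GH. With its 665 and 286 nuclei added, the class of dataset 1 stood at 698 CPM (Run) against 496 CPM (Sed), so that Run remained the higher library and the level of dataset 1 came nearer to that of dataset 2.

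Il1rapl1 showed the same direction in 3 further pyramidal classes. In layer 5 Chst8-like nuclei it was 2222 against 1653 CPM (Run against Sed) in dataset 1, 1525 against 1727 CPM in GH and 1692 against 1778 CPM in SI of dataset 2. In layer 2/3-like nuclei, where the gene is most abundant, it was 3825 against 3233 CPM, 3335 against 3563 CPM and 3442 against 3602 CPM in the same order. Near-projecting-like nuclei held 2571 against 2081 CPM, 1979 against 2008 CPM and 1986 against 2369 CPM. In each of these classes Run was the higher library in dataset 1 and the lower in both pairs of dataset 2. The layer 2/3-like class was 1 cluster in dataset 1 and joined 2 in dataset 2, of which the smaller held 707 of 2123 nuclei in Run GH, 519 of 1394 in Sed GH, 432 of 1597 in Run SI and 529 of 1164 in Sed SI. In the larger of them Il1rapl1 was 3222 (Run) against 3480 CPM (Sed) in GH and 3355 against 3644 CPM in SI. In the smaller it was 3536 against 3671 CPM in GH and 3640 against 3562 CPM in SI, so that in SI Run was not the lower library there. Ptprd in near-projecting-like nuclei, at 11099 against 9145 CPM, 9787 against 10029 CPM and 10148 against 10694 CPM, followed the Il1rapl genes with a difference of -0.47.

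Ptprs and Ptprf had the opposite sign. Ptprs in the Deptor cluster was 373 against 491 CPM (Run against Sed) in dataset 1, and 261 against 229 CPM in GH and 254 against 217 CPM in SI of dataset 2. Ptprf in the Oprk1 cluster was 30.01 against 55.5 CPM in dataset 1, 32.0 against 26.8 CPM in GH and 47.3 against 20.9 CPM in SI of dataset 2. Run was below Sed in dataset 1 and above it in both pairs of dataset 2 for both genes, with differences of Run effects of 0.47 and 1.57 ± 0.33 (edgeR adjusted p = 0.0394 and 0.0114).

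**Figure D4:**
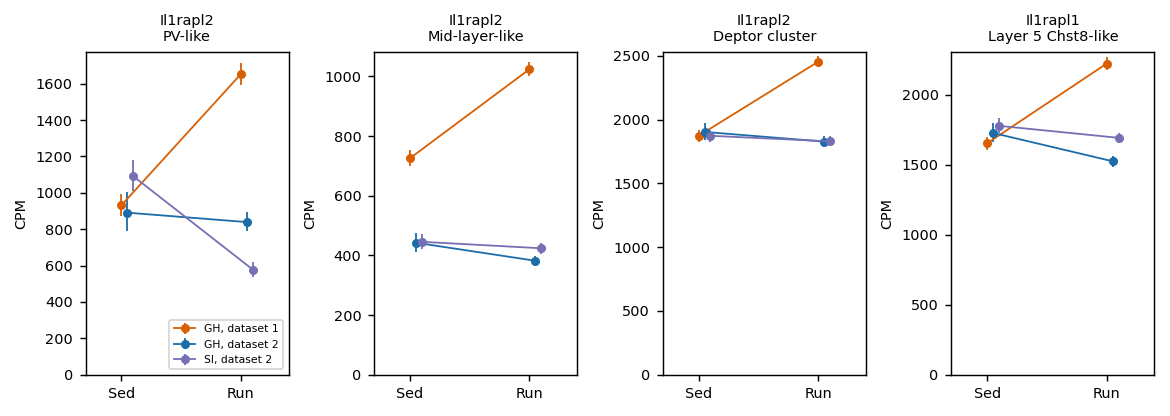
Level in CPM (linear axes from 0) of Il1rapl2 in PV-like, mid-layer-like and Deptor nuclei and of Il1rapl1 in layer 5 Chst8-like nuclei, for Sed and Run libraries; each line joins the 2 libraries of 1 dataset and housing, and bars are exact 95% Poisson intervals, which cover counting error alone. The line of dataset 1 rises from Sed to Run in all 4 panels, and those of dataset 2 are level or fall.

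Within dataset 2 alone the effect of maternal running passed in 5 of 105 class tests of members by edgeR, a share near the 4.58% of 119711 tests over all genes, an analysis chosen after the data were seen. Il1rapl2 in PV-like nuclei was lower in Run (-0.58 ± 0.10, adjusted p = 1.06e-05), with the unequal cluster shares given above, as was Il1rapl1 in the Deptor cluster (-0.37 ± 0.07, adjusted p = 2.48e-05). Slitrk1 in mid-layer-like nuclei (0.45), Ptprf in the Oprk1 cluster (0.73) and Ptprd in astrocyte-like nuclei (1.16) were higher in Run. Ptprd in those astrocyte-like nuclei was 847 and 797 CPM in Run GH and Run SI against 311 and 381 CPM in Sed GH and Sed SI, and summed pyramidal markers there were 23.7 to 36.0% of the pyramidal level, so that the part of free RNA was not tested. Over all nuclei Il1rapl1 (-0.23) and Il1rapl2 (-0.34) passed as well, as did 12.4% of all genes. In pyramidal nuclei Il1rapl1 (-0.21), Il1rapl2 (-0.31) and Slitrk1 (0.35) passed, with 18.1% of all genes. The Deptor cluster, where Il1rapl2 peaks, gave a smaller share of pyramidal UMIs in Run than in Sed in both pairs. The counts were 3745341 of 32001387 against 1594604 of 9675509 in GH and 4550990 of 32475585 against 3060854 of 17671221 in SI. Il1rapl2 within that cluster was nearly equal in Run and Sed, and the part of these shares in the pooled values was not tested. In inhibitory nuclei Ptprd (-0.36) and Il1rapl2 (-0.39) passed, with 4.16% of all genes. In no interneuron class was Run below Sed in both pairs for Ptprd. In PV-like nuclei it was 925 (Run) against 888 CPM (Sed) in GH and 879 against 840 CPM in SI. In the same order, NPY-like nuclei held 1834 against 1819 and 1760 against 1725 CPM. VIP-like nuclei held 2005 against 1893 and 2075 against 2087 CPM, and SST-like nuclei 1600 against 1814 and 1714 against 1682 CPM. The part of class shares in the pooled inhibitory values was not tested. The fits within dataset 2 rest on 4 libraries and 1 residual degree of freedom. Their ± does not measure the spread between the pairs, which for Il1rapl2 in PV-like nuclei gave -0.09 in GH and -0.92 in SI.

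Social isolation was tested with the fit of all 6 libraries on dataset, maternal environment and housing. Its housing term is a single effect averaged over Run and Sed, so opposite responses of Run and Sed mice could cancel in it. A housing effect that differs between Run and Sed was not tested. Of 114 tests of members 0 passed by edgeR and 0 of 140 by DESeq2, and 4 of the 114 had an unadjusted p below 0.05, while 0.00375% of 133367 tests passed over all genes. The smallest p was that of Il1rapl2 in SST-like nuclei (-0.87 ± 0.30, SI over GH, edgeR adjusted p = 0.9998). These nuclei held 164 and 57.8 CPM in Run SI and Sed SI, against 256, 152, 201 and 319 CPM in Run GH and Sed GH of dataset 1 and Run GH and Sed GH of dataset 2, so that the Run SI library lay within the range of GH. Slitrk5 in astrocyte-like nuclei, at 2.54 ± 0.85, rested on 11 and 3 UMIs in the 2 SI libraries. Smallest adjusted p-values by edgeR were 0.872 or above for each of the 10 genes.

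The datasets differed from each other far more than the groups did. They differ in behavioural testing, cohort, preparation, depth and free RNA, which cannot be told apart. Fold changes by edgeR, here and above, use TMM scaling, whereas the levels are plain CPM. Fitted falls can therefore be larger than those of the printed levels. The edgeR comparison called 51 of 114 member tests, 44 of them lower in dataset 2 and 7 higher, while 30.2% of all tests passed, 13.6% as lower and 16.5% as higher. The median of the members was -0.34 on the log2 scale, outside the class medians of all genes (-0.19 to 0.02). The count of members without the Run GH library of dataset 2 was 18.

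Ptprs was the most even of these. It was lower in dataset 2 in 12 of 14 classes, with log2 fold changes from -0.56 in near-projecting-like to -1.79 in oligodendrocyte-like nuclei among those called, and -0.87 ± 0.12 over all nuclei (edgeR adjusted p = 0.00401). All 12 calls were kept when the profile of droplets without a nucleus was subtracted, a step added after the data were seen, and 7 were kept with the profile of barcodes under 100 UMIs subtracted or with 2 times the minimum of UMIs. Ptprf fell in 6 of 11 classes, most in mid-layer-like nuclei (-1.38 ± 0.17), where it was 132 and 199 CPM in Run GH and Sed GH of dataset 1 against 64.1 to 78.2 CPM in dataset 2. With the unnamed cluster of 951 nuclei described above added to the class (r = 0.84, against 0.86 for the named one), Ptprf in dataset 1 was 102 and 151 CPM, still above dataset 2 and nearer to it. Of its 6 calls 5 were kept after the first subtraction and 3 after the second.

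Ptprd fell in 10 of 14 classes. The falls were largest where the gene is scarce, in astrocyte-like (-2.72 ± 0.25), OPC-like (-2.08 ± 0.28) and PV-like nuclei (-1.55 ± 0.15), and 4 of the 10 were kept after subtraction of the droplet profile and 6 after that of the small barcodes. With the droplet profile subtracted, astrocyte-like nuclei were at -2.30 (edgeR adjusted p = 1.36e-06) and PV-like nuclei at -0.19 (edgeR adjusted p = 0.410). This subtraction took the same share of UMIs from every class of a library. The astrocyte-like clusters of dataset 1 had medians of 3215 and 4199 UMIs, below the 5586 to 6250 of all nuclei. Free RNA can thus be a larger share there than was taken out, and its part in the remaining fall was not tested. Il1rapl2 fell in 11 classes, of which 5 and 7 were kept by these subtractions, and after that of the droplet profile, which takes its counts in dataset 1 down to 0 there, it turned to a higher level in dataset 2 in layer 2/3-like and layer 5 Chst8-like nuclei (edgeR adjusted p = 0.000632 and 0.00343), and Il1rapl1 in 4, of which 2 were kept by either. Over all nuclei Ptprd fell by 0.42 ± 0.13 on the log2 scale (edgeR adjusted p = 0.0476), as 41.3% of all genes changed in one direction or the other there, and Il1rapl1 and Il1rapl2, at -0.34 and -0.45, did not pass.

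Slitrk1 rose. It was higher in dataset 2 in 6 of 10 classes, by 0.83 in layer 6 to 1.73 in VIP-like nuclei, and by 0.82 ± 0.12 over all nuclei (edgeR adjusted p = 0.00523). Of the 6 calls 6 were kept after the droplet profile was subtracted and 5 after that of the small barcodes, and the value in VIP-like nuclei turned to -0.54 without the Run GH library of dataset 2. Slitrk3 and Slitrk4 passed in 0 classes by edgeR and by DESeq2, with 0 and 1 classes at an unadjusted p below 0.05, and Slitrk5 passed by both tools in astrocyte-like nuclei alone, where it was lower in dataset 2 (-3.16 ± 0.70, edgeR adjusted p = 0.00278) and rested on 2 and 0 UMIs in Run GH and Sed GH and 11 and 3 in Run SI and Sed SI of that dataset. Slitrk2 passed there by edgeR (1.04 ± 0.35, adjusted p = 0.0333) but in 0 of 14 classes by DESeq2, and its call was lost with either subtraction of free RNA, the fold change being 0.96 after that of the droplet profile. The short Slitrk genes thus did not move as a group.

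**Figure D5:**
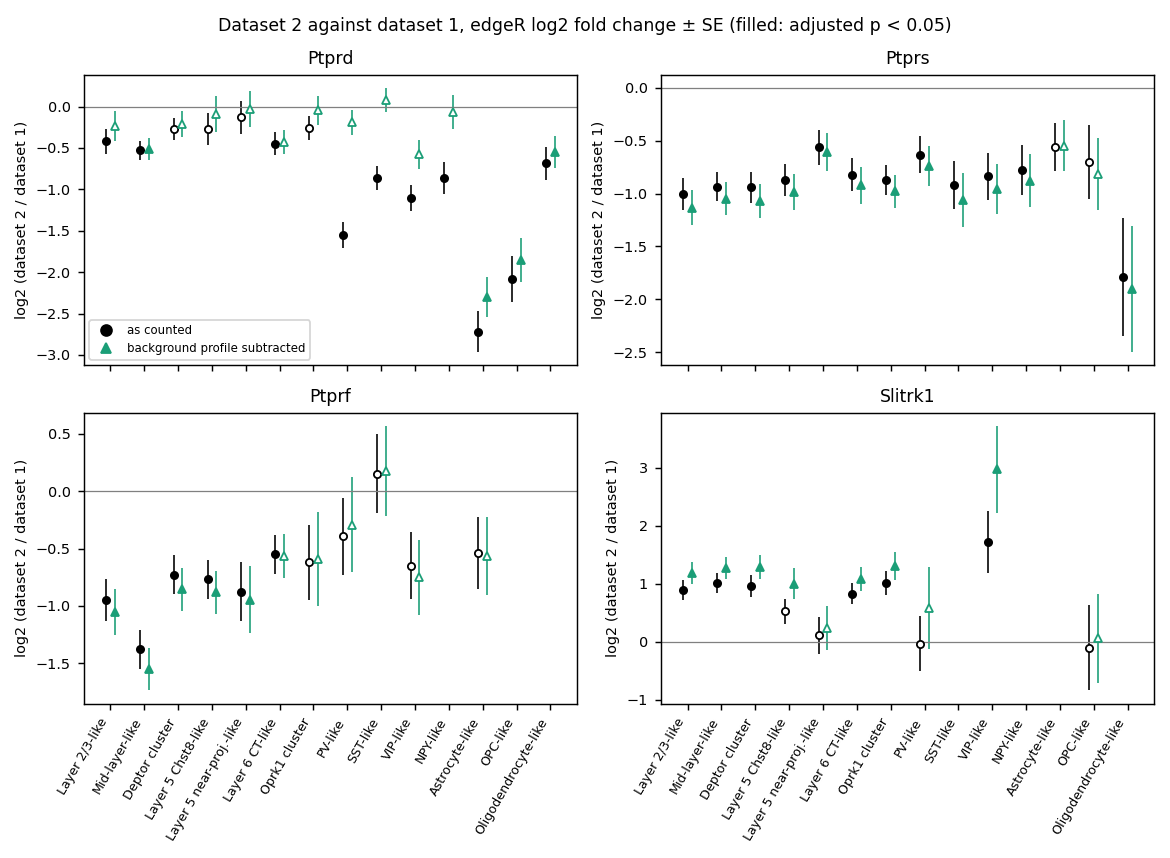
Log2 fold change ± SE (edgeR) of dataset 2 over dataset 1 for Ptprd, Ptprs, Ptprf and Slitrk1 by class; black circles are counts as deposited, green triangles are counts after subtraction of the profile of droplets without a nucleus, and filled symbols have an adjusted p below 0.05. Ptprs and Ptprf hold their place under the subtraction, most points of Slitrk1 lie above 0, and the interneuron points of Ptprd move towards 0.

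Other genes of the pathway, a list of 19, were read in the same fits. They comprised further ligands (Slitrk6, Il1rap, Ntrk3, Lrrc4b, which encodes NGL-3, and Lrfn1 to Lrfn5), the glypican Gpc4 and its binding partner Lrrtm4, the liprins (Ppfia1 to Ppfia4, Ppfibp1 and Ppfibp2), Trio and the scaffold Cask. Lrrtm4 was the most abundant at 2944 ± 553 CPM over all nuclei and highest in layer 5 Chst8-like nuclei (4562 CPM), the class where Ptprs peaked. Ntrk3, the gene for TrkC, was highest in layer 2/3-like nuclei (1300 CPM), and Il1rap in oligodendrocyte-like nuclei (423 CPM). Lrfn5, which encodes a postsynaptic adhesion protein, stood at 1481 ± 160 CPM and was highest in mid-layer-like nuclei (2023 CPM), as Ptprd was. Slitrk6, with 6 UMIs over all nuclei, was too low to test.

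For maternal environment and for housing 0 of 210 tests of these genes passed by edgeR, with 19 and 5 at an unadjusted p below 0.05, and 2 and 0 of 255 passed by DESeq2. The 2 were Lrrtm4 in mid-layer-like nuclei, higher in Run by 0.29 (DESeq2 adjusted p = 0.00785), and Lrfn2, which encodes a postsynaptic adhesion protein, in layer 6 nuclei at -0.39 (DESeq2 adjusted p = 0.0184), beside 0.176% of tests over all genes. Between datasets 90 of 210 passed (42.9%), all of them lower in dataset 2, with a median of -0.52 on the log2 scale, where over all genes 30.2% passed and 13.6% as lower. Trio, which acts downstream of the phosphatases, fell in 13 of 14 classes and by 0.89 ± 0.09 over all nuclei (edgeR adjusted p = 0.00190). Lrfn2 fell in 12 classes and the liprins Ppfia1 and Ppfia3 in 8 each. The ligand genes Ntrk3 and Lrrc4b also fell in 8 classes each, by 0.44 and 0.91 over all nuclei. Lrrtm4 fell in 7 classes and by 0.56 over all nuclei, Ppfia4 in 6 and by 1.05, and Lrfn1 in 4 and by 0.77. Lrfn5 and Ppfia2 fell in 5 classes each and Il1rap and Ppfibp1 in 3, while over all nuclei Lrfn5, Ppfia2 and Il1rap, at -0.37, -0.33 and -0.25, did not pass. Cask, at -0.07 over all nuclei, passed in 0 of 14 classes by edgeR and by DESeq2, with 2 at an unadjusted p below 0.05. The Run effect differed between datasets for 5 of 216 tests (2.31%), close to the 2.19% over all genes, in both directions. They were Ppfia3 in the Deptor cluster (0.70), Lrrtm4 in layer 5 Chst8-like nuclei (-0.55), Ppfibp2 in layer 6 nuclei (-2.03), Il1rap in the Oprk1 cluster (-0.71) and Ppfia2 in PV-like nuclei (-0.77). Over all nuclei Lrfn5 (-0.47), Lrrtm4 (-0.43) and Ppfia2 (-0.48) passed, beside 6.48% of all genes. In pyramidal nuclei these passed with Cask (-0.41) and Ppfia3 (0.49), beside 10.8%. The difference was negative in 11 of 14 classes for Lrfn5 and Lrrtm4, as for Il1rapl1, in 12 for Ppfia2 and in 13 for Cask. It was positive in 11 of 12 for Ppfia3 and 10 of 11 for Ppfia4.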

How the data were processed

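The deposited values were UMI counts per gene and barcode, which the authors made with Cell Ranger 6.0.0 against mm10 with introns counted, for every barcode. Nuclei were kept at 500 to 4000 genes, at most 1% mitochondrial UMIs and a minimum of UMIs set per library (the 99th percentile of the largest barcodes divided by 10), and doublets, marked in 1.09 to 6.75% of nuclei, stayed in. Each dataset was clustered with scanpy 1.11.5 (3000 variable genes without the genes reported here, 35 components, 20 neighbours, Leiden resolution 0.6). UMIs were summed per class and library and tested with edgeR 4.0.16 (quasi-likelihood, TMM, filterByExpr) on dataset, maternal environment and housing, which leaves 2 residual degrees of freedom, with p-values adjusted by Benjamini-Hochberg over all genes of a class. The labels' cohort number marks libraries that share a cohort, so dataset is the block of the main fit. Simulated 2-fold changes were recovered for 85.6% of 97 changed genes in all nuclei (18573 genes fitted). In PV-like nuclei 60.2% of 93 were recovered (9945 genes fitted) and in astrocyte-like nuclei 33.3% of 78 (8024 genes fitted). The simulation gave all genes the same dispersion, all libraries the same mean profile and both datasets the same Run effect. The data differ in these respects, so the shares do not give the sensitivity of the fits reported here.

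The members and the partner list were chosen with earlier results of these data known. Named were all members in every class, partners that passed in any class or were among the 3 most abundant, and the genes most like each member by Pearson's r of mean log2(CPM + 1). Alternatives were DESeq2 1.42.0, other filters and clustering, subtraction of free RNA and leaving out each library. Exact intervals and a count of 0, which allows up to 3 UMIs, cover counting error alone. Positions are from GENCODE on GRCm38.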

Additional observations from a re-analysis of the deposited data

Results flagged for a closer look

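The Run effect differed between the datasets, by the test of that difference (edgeR, 1 residual degree of freedom), for 10 combinations of gene and class. Il1rapl1 gave 4 of them, with a log2 difference of -0.46 in layer 2/3-like, -0.59 in Deptor, -0.71 in layer 5 Chst8-like and -0.59 in near-projecting-like nuclei. Its Run over Sed log2 ratio in layer 5 Chst8-like nuclei was 0.43 in dataset 1 and -0.18 and -0.07 in GH and SI of dataset 2. Il1rapl2 gave -0.74 in mid-layer-like, -0.57 in Deptor and -1.46 in PV-like nuclei. Ptprd gave -0.47 in near-projecting-like nuclei, Ptprs 0.47 in the Deptor cluster and Ptprf 1.57 in the Oprk1 cluster. Dataset 1 has 1 library in each group, so each difference rests on that pair.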

How the results depend on the processing

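The 0 member tests passed for maternal environment stayed at 0 without the replicate block (the cohort number), as did the 0 for housing, and without that block the datasets cannot be compared. Maternal environment passed in 5 tests in dataset 2 alone, and leaving out 1 library gave 0 to 3, with 3 without Run GH of dataset 1 and 1 each without Sed GH of dataset 1, Run GH of dataset 2 or Sed GH of dataset 2. Leaving out either library of a pair from the same dataset and housing gives nearly the same contrast for Run. Such fits are therefore not separate results. The 51 calls between datasets became 30 in group-housed libraries, 28 with at least 1000 genes per nucleus, 28 with 2 times the minimum of UMIs, 31 with the profile of barcodes under 100 UMIs subtracted, and 18 to 43 with 1 library left out. The lowest, 18, was without Run GH of dataset 2. Dataset 2 alone, group-housed libraries and the subtraction of background droplets were added after seeing the data. The 51 were of 114 edgeR tests, while DESeq2 gave 47 of 140 and shared 42 of the 51, and other clustering gave 46. Directions that turned were as follows, as log2 values. Between datasets, subtraction of background droplets gave Il1rapl2 9.52 in layer 2/3-like and 9.42 in layer 5 Chst8-like nuclei, where dataset 1 falls to the floor of 0, and Ptprd 0.078 in SST-like nuclei. With 1 library left out, Il1rapl2 in PV-like nuclei ran from -1.33 to 0.16, the latter without Run GH of dataset 1, and Slitrk1 in VIP-like nuclei from -0.54 to 2.16. For maternal environment over all nuclei, Ptprd was at -0.087 and Ptprs at 0.020 in dataset 2 alone, and with 1 library left out they ran from -0.082 to 0.076 and from -0.17 to 0.027. For housing, Ptprf was at -0.33 and Slitrk1 at 0.12 without the block, and Ptprf ran from -0.023 to 0.28 with 1 library left out. The thinned share of nuclei with Il1rapl2 was -0.63 percentage points in inhibitory minus pyramidal nuclei. The cause was not tested. Counts of the Slitrk genes were low in OPC-like nuclei, with 5 UMIs of Slitrk4 to 38 of Slitrk1 in 349 nuclei, 14 to 104 per library.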
